A study of Kluyveromyces marxianus with 6 samples.

Results

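Long antisense noncoding RNAs (lancRNAs) that ran across the 5′ end of 1 mRNA of *Kluyveromyces marxianus* are described here. A transfrag is a stretch of the genome covered by reads of 1 strand, where the authors merged neighbours less than 40 bp apart and some farther apart. They also divided transfrags that ran over several gene annotations, so some borders come from the annotation. Each transfrag was placed in 1 of several RNA classes by its length, its coding potential and its position against predicted genes. A lancRNA is such a stretch of at least 200 bp that lay opposite a gene and had no coding potential. Of the 3067 lancRNAs, 2175 overlapped exactly 1 mRNA transfrag of the other strand by at least 1 bp. Of these, 510 (16.6% of all lancRNAs, 23.4% of those with 1 mRNA) reached past the 5′ end of the mRNA and ended inside it, so that the last base at its 3′ end was not covered. These 510 are called 5′-end lancRNAs below, and the whole series held 14298 transfrags. The choice used positions and RNA classes only, and no level entered it. Each covers the first base of its mRNA, so the rule allows only 1 per mRNA, and the 510 lancRNAs faced 510 different mRNAs.

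An antisense transcript is read against the direction of the gene it overlaps, and one that begins in the gene body and runs past the gene start enters the region that holds the promoter. In *Saccharomyces cerevisiae*, antisense transcription into a promoter is known to repress single genes through changes in chromatin, and for most antisense transcripts no effect is known. A transcript of the same strand can also belong to a divergently oriented neighbour gene that shares the intergenic region.

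*K. marxianus* is a thermotolerant relative of the milk yeast *Kluyveromyces lactis* and is counted among the Crabtree-negative yeasts, which respire glucose when oxygen is plentiful. The strain ATCC 36907 (KM7) was grown in synthetic medium lacking uracil with 2% dextrose, and cells were taken in the early exponential (EE, optical density about 3), mid exponential (ME, about 7) and late exponential (LE, about 10) phase, with 2 biological replicates each. All groups share the strain, the medium and the temperature, and growth phase and culture density cannot be told apart. After removal of rRNA, 6 libraries that keep the strand were sequenced.

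The deposited value is a transcriptional level, a read signal scaled by DESeq and averaged by the authors over both libraries of a growth phase. It is not divided by transfrag length, and 1 value was given per transfrag and growth phase. No error between replicates can therefore be given for a level and no change was tested. The depth was read from the low levels, which were sums of whole reads of both libraries with a tolerance of 0.0051. All of the 8160 EE levels up to 12, 5675 ME levels up to 5 and 5875 LE levels up to 5 could be split in this way. The scaling was steeper in EE, where 1 read of either library added 0.707 or 1.33 to the mean level, against 0.270 or 0.365 (ME) and 0.294 or 0.397 (LE). The level of 3 reads in 1 library, below which a level was treated as a limit, was accordingly 4.00 (EE), 1.09 (ME) and 1.19 (LE). Both libraries differed at these low levels over all transfrags by 2.49 (EE), 1.80 (ME) and 1.56 (LE) times the variance of counting, and by 2.09, 1.56 and 1.89 times among the 5′-end lancRNAs (317, 149 and 162 split levels). The standard errors (SE) of log2 changes below come from counting widened by the values over all transfrags and cover counting error and this spread only. They leave out any spread between cultures that appears at higher levels only.

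The 5′-end lancRNAs were mostly short and sat over the front part of the mRNA. Their length ranged from 200 to 3309 bp with a median of 402.5 bp, and the mRNAs had a median length of 804 bp. The overlap ranged from 2 to 2274 bp with a median of 246.5 bp (quartiles 159 and 529.75 bp). They covered a median of 38.6% of the mRNA, and 197 of 510 (38.6%) covered more than 50% of it. The stretch past the 5′ end had a median of 115 bp (quartiles 51 and 198 bp), and in 384 (75.3%) it was at most 200 bp. They lay on 16 contigs, 223 of them on the + strand, and made up between 11.2% and 21.8% of the lancRNAs on the 10 contigs with at least 100 lancRNAs.

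**Figure D1:**
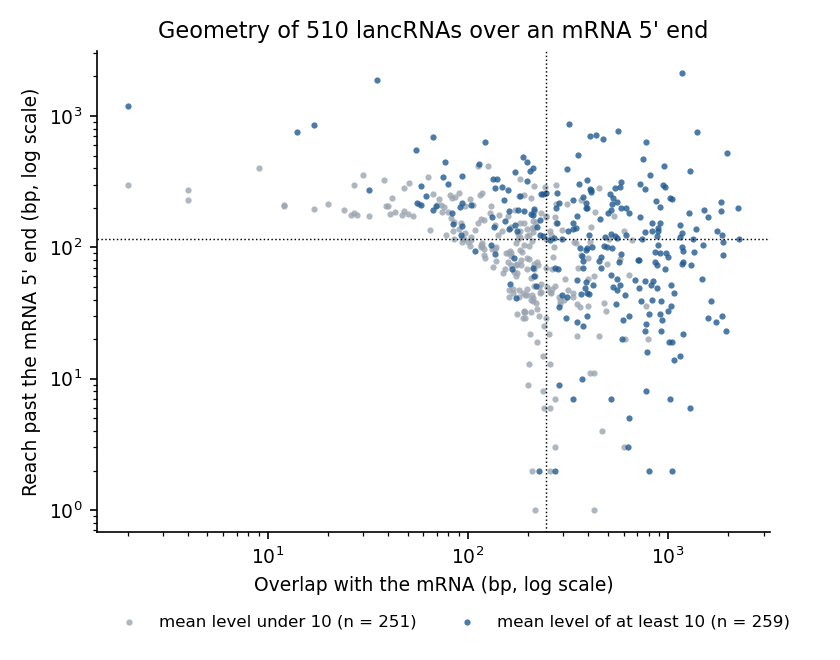
Overlap with the mRNA (horizontal, bp, log scale) against the stretch past the mRNA 5′ end (vertical, bp, log scale) for the 510 lancRNAs, 1 point each, in blue for the 259 with a mean level over growth phases of at least 10. Dotted lines mark the medians of 246.5 and 115 bp, and the empty lower left corner follows from the minimum length of 200 bp.

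Members near the edges of the rule showed no common level. The shortest overlap was 2 bp, shared by transfrag04719, whose levels in the order EE, ME, LE were 168.45, 37.37 and 45.33, and transfrag21075, with 6.04, 9.62 and 12.63. The shortest stretch past the 5′ end was 1 bp, in transfrag06219 (9.03, 6.97 and 7.79) and transfrag09877 (11.70, 4.17 and 3.82). At the other end of the mRNA, transfrag20536 left 3 bp uncovered (7.62, 9.89 and 2.35). A shift of a few bases in a transfrag border would move such members into another class.

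An mRNA transfrag begins where reads were found or where the authors divided a longer one, and this need not be the start of the gene. Gene models of the study's annotation, of which 1998 were used here, matched 207 of the 510 mRNAs. The 5′ end of the mRNA transfrag lay inside the gene in 163 of these 207 (78.7%), at a median of 188 bp from the gene start, and over 100 bp inside in 104. Over all 207, with positions upstream of the gene counted as negative, the median distance was 102 bp (quartiles 10 and 575 bp). The lancRNA covered the annotated gene start in 107 (51.7%) and did not in 100. In 39 of the 207 genes another mRNA transfrag of the same gene lay further upstream. Of the 100 lancRNAs off the gene start, 99 crossed an mRNA 5′ end that lay within the gene, and 1, transfrag04719, crossed one that lay 520 bp upstream of it. The mRNA transfrag began over 100 bp inside the gene in 41 of 99 lancRNAs that crossed only the 3′ end and in 111 of 526 that lay inside the mRNA (21.1%). None of the 207 lancRNAs overlapped one of these gene models on its own strand. The RNA classes were set by position against predicted genes, so this was largely fixed by the class.

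**Figure D2:**
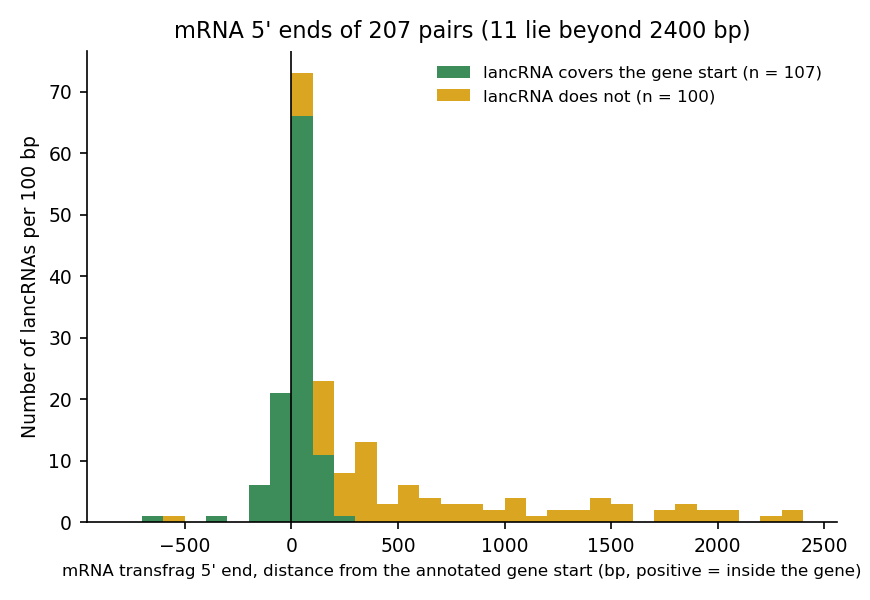
Distance of the mRNA transfrag 5′ end from the annotated gene start (horizontal, bp, positive inside the gene) and number of lancRNAs per 100 bp (vertical) for the 207 pairs with a gene model, stacked by whether the lancRNA covers the gene start (green, 107) or not (yellow, 100). Nearly all of the 107 lie close to 0, and the 100 spread into the gene, with 11 pairs beyond the axis at 2400 bp.

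The 5′-end lancRNAs were weakly transcribed compared with the mRNAs they overlapped. In the order EE, ME, LE their median levels were 8.08, 11.23 and 11.23, and those of their mRNAs 63.41, 188.0 and 249.4. The quartiles of the lancRNA levels were 4.16 and 18.22 (EE), 3.81 and 34.18 (ME) and 2.99 and 35.86 (LE). In EE, 114 lancRNAs were at or under the level of 3 reads, against 42 in ME and 58 in LE. A level of 0 was listed for 17 of them (EE), 10 (ME) and 10 (LE). Over all lancRNAs the median level was 8.16, 9.71 and 8.90, and over all mRNAs 24.10, 39.75 and 29.39. The mRNAs under 5′-end lancRNAs thus had medians above that of all mRNAs in every growth phase, and they were also longer than all mRNAs, with a median of 804 against 577 bp.

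**Figure D3:**
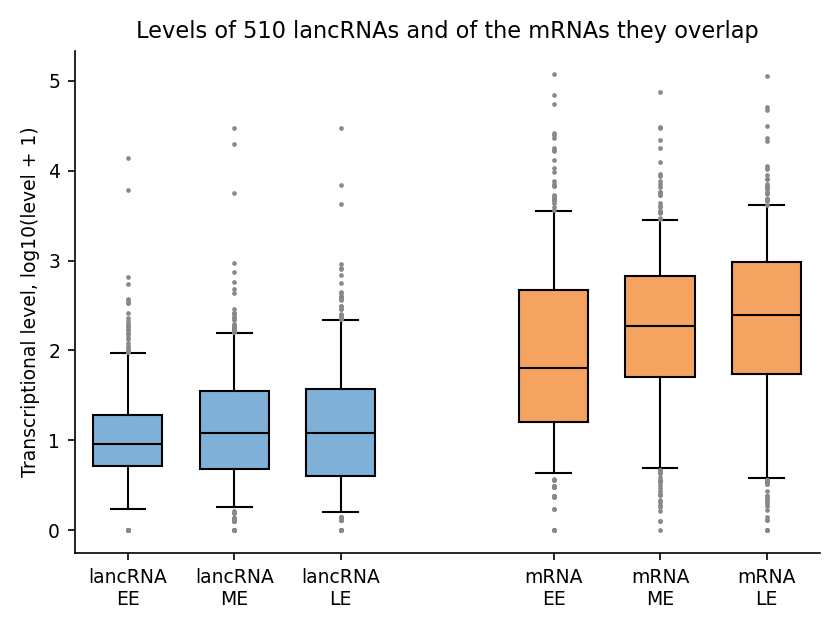
Transcriptional level as log10(level + 1) of the 510 lancRNAs (blue) and of their mRNAs (orange) in each growth phase. Boxes give quartiles and median, whiskers the 5th and 95th percentile and points the transfrags beyond, and the mRNA medians of 63.41, 188.0 and 249.4 stand above the lancRNA medians of 8.08, 11.23 and 11.23.

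As a percent of the mRNA level, the lancRNA stood at a median of 9.92% (EE), 6.69% (ME) and 6.25% (LE). Per kb of transfrag, the median of this percent was 19.7%, 11.4% and 10.9%. The level of the lancRNA was above that of its mRNA in 79 (EE), 61 (ME) and 55 (LE) of 510 pairs, and in 21 pairs in all 3 growth phases. Among lancRNAs inside the mRNA the lancRNA was above in 29 of 1262 pairs in EE and 10 in LE, and among those over the 3′ end only in 53 and 31 of 246. Level and mRNA level went weakly together, with a Pearson coefficient of log10(level + 1) across the 510 pairs of 0.31 (EE), 0.37 (ME) and 0.39 (LE). Both levels of a pair come from the same libraries, so these coefficients are descriptions without a test.

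The 5′-end lancRNAs rose more often than they fell between EE and ME. A level in ME at least 2-fold above that in EE, on the scale of level + 1, was found in 197 of 510 (38.6%), where 26.7% of all transfrags were so called, and a level at least 2-fold lower in 114 (22.4%), against 36.9% of all transfrags. Over all lancRNAs the shares were closer, with 34.3% higher and 25.2% lower. The median log2 change was 0.38, against −0.40 over all transfrags, 0.24 over all lancRNAs and 0.94 over the mRNAs of the pairs. A culture with less RNA of a kind per cell and one with fewer cells making it cannot be told apart in bulk RNA. The 95% interval of the change, from its SE, left out 0 for 129 of the 197 higher and 79 of the 114 lower lancRNAs. Scaled by the mapped reads of each growth phase, 324 were higher and 51 lower, where 45.4% and 17.8% of all transfrags were so called. The median over all transfrags rose by 1.16 on the log2 scale.

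In LE against EE the picture was alike, as both comparisons share the EE levels. A total of 208 (40.8%) were at least 2-fold higher, against 27.0% of all transfrags, and 124 (24.3%) at least 2-fold lower, against 42.7%. Over all lancRNAs the shares were again closer, with 37.2% higher and 28.6% lower. The median log2 change was 0.51, with −0.62 over all transfrags, 0.25 over all lancRNAs and 1.25 over the mRNAs of the pairs. The interval left out 0 for 149 of the 208 and 83 of the 124. The direction depended on the scaling. Scaled by mapped reads, 274 were higher and 89 lower, where 35.4% and 31.7% of all transfrags were so called. Scaled by the summed level without the 100 highest transfrags, 148 were higher and 171 lower, where 20.4% and 51.6% of all transfrags were so called. The median was then −0.032, beside −1.08 over all transfrags. Under both scalings the share of rises was above that of all transfrags and the share of falls below it. The shifts of the median over all transfrags were 0.63 and −0.45.

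Between ME and LE most levels stayed within 2-fold. In all, 32 (6.27%) were at least 2-fold higher in LE, against 5.23% of all transfrags, and 50 (9.80%) at least 2-fold lower, against 14.8%. The median log2 change was 0.19, against −0.01 over all transfrags. Scaled by mapped reads the counts were 18 and 114, where 3.29% and 30.5% of all transfrags were so called, with a median of −0.31.

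Taking the growth phases as 1 course, 164 of 510 (32.2%) were at least 2-fold higher in ME and LE and held that level, against 20.7% of all transfrags. Another 75 (14.7%) were at least 2-fold lower in both and held, against 28.1%, and 128 (25.1%) stayed within 2-fold throughout, against 19.3%. Over all lancRNAs these shares were nearer, at 27.7% (higher and held), 17.5% (lower and held) and 23.8% (within 2-fold). Rises at both steps were found in 9 (1.76%, against 0.916% of all transfrags) and falls at both steps in 12 (2.35%, against 3.31%). A peak in ME was found in 12 (2.35%, against 3.64%) and a dip in ME in 14 (2.75%, against 2.16%). All of the 14 dips had a mean level under 10.

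The level of a 5′-end lancRNA went with its direction. Among the 259 with a mean level of at least 10, 161 (62.2%) were higher and 18 (6.95%) lower in LE against EE, where 47.6% and 22.7% of the 6302 transfrags with such a mean were so called. The corresponding counts were 147 and 23 in ME against EE, beside 44.4% and 20.4%, and 10 and 11 in LE against ME, beside 5.55% and 9.97%. Among the 251 with a mean level under 10, 47 (18.7%) were higher and 106 (42.2%) lower in LE against EE, where 10.8% and 58.5% of the 7996 transfrags with such a mean were so called. The mean is made of the levels compared, and 1 read weighs more in EE than later, so a low mean level and a fall from EE are not independent, and these counts are descriptions.

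The longest overlaps came with the highest levels and the most rises, but the order was not even. The 510 were divided by overlap into 4 groups of nearly equal size. In the group with overlaps of 531 to 2274 bp, 73 of 128 were higher and 6 lower in LE against EE, with a median level of 27.1 in EE and 78.3 in LE. In the group with overlaps of 2 to 159 bp, 44 of 129 were higher and 44 lower, and the median level was 5.41 and 4.13. Overlaps of 160 to 246 bp had fewer rises than these, with 35 of 126 higher and 50 lower and medians of 6.28 and 3.83, and overlaps of 247 to 526 bp had 56 of 127 higher and 24 lower, with 9.03 and 14.1. Per kb of lancRNA the median level of the group with the longest overlaps was 24.8 in EE and 66.4 in LE, and that of the shortest 19.9 and 15.1. With a mean level of at least 10, however, the share of rises was similar in all 4 groups. From the shortest to the longest overlap, 23 of 38, 21 of 31, 46 of 71 and 71 of 119 were higher. In the same order, 7, 2, 4 and 5 were lower, so the share of falls stayed highest in the shortest overlaps. Of all transfrags with such a mean, 47.6% were higher and 22.7% lower. The part of length and of level in the differences between the overlap groups was not tested separately.

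**Figure D4:**
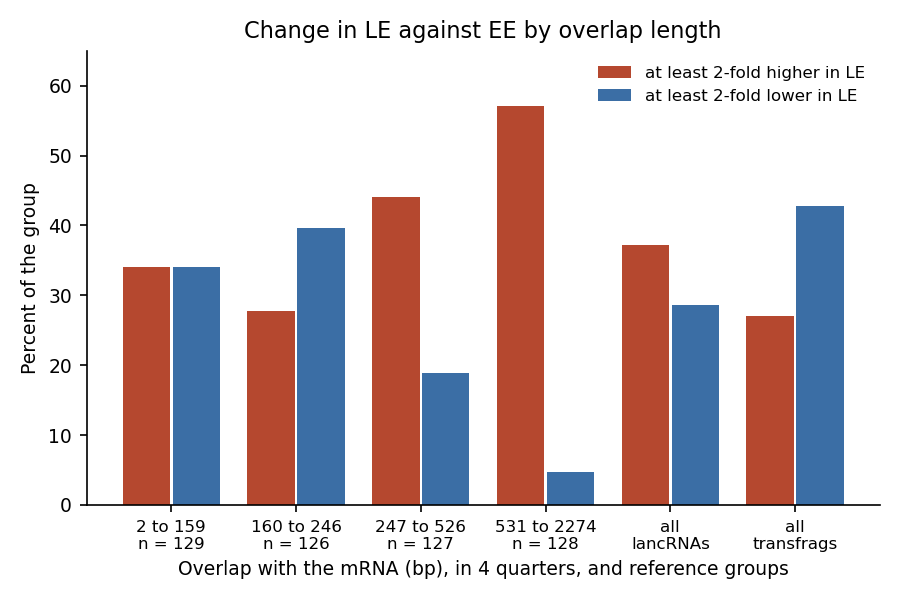
Percent of 5′-end lancRNAs at least 2-fold higher (red) or lower (blue) in LE against EE, on the scale of level + 1, in 4 groups by the overlap with the mRNA (bp), beside all lancRNAs and all transfrags. Rises outnumber falls by 73 to 6 in the group with the longest overlaps and equal them at 44 each in the shortest.

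Where the mean level was 10 or more and ME moved the same way, the largest rises in LE started from levels near or below the limit of 3 reads in EE. transfrag04088 (contig 103, bases 575273 to 575818, + strand) had levels of 0, 43.65 and 64.45, at least 16.1-fold higher in LE. It crossed the 5′ end of an mRNA transfrag of a gene closest to HGT1, the high-affinity glucose transporter of *Kluyveromyces lactis*, whose level was 6.83, 9.45 and 12.03. The mRNA began 486 bp inside the gene, and the gene start was not covered. A second lancRNA of the same kind, transfrag04095 (contig 103, bases 578715 to 579398, + strand), lay opposite another HGT1-like gene and had levels of 12.57, 97.23 and 149.68, while the mRNA stayed at 10.91, 9.26 and 13.34. Its log2 change in LE was 3.47 (SE 0.61). Of the gene models used, 6 had HGT1 as their closest homolog, and the authors placed reads with several matches at random, so the division of reads among these copies is uncertain.

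The other large rises were on other contigs. transfrag19276 (contig 110, bases 796680 to 797485, − strand) rose from 8.16 in EE, which corresponds to 4 reads in each library, to 178.92 in ME and 403.37 in LE, a log2 change of 5.46 (SE 0.72). Its mRNA, transfrag17504, moved the other way, with levels of 16330, 5514 and 8118. transfrag01743 (contig 91, bases 123904 to 124327, − strand) was listed at 0, 18.73 and 30.05 and was at least 7.51-fold higher in LE. It covered the start of a gene closest to SKT5, an activator of chitin synthesis in *Saccharomyces cerevisiae*, whose mRNA went from 4879 to 712 and 1100. transfrag30088 (0, 27.9 and 35.8) and transfrag19247 (0.71, 43.31 and 50.55) were at least 8.94-fold and 12.6-fold higher, and here the mRNAs also had more signal in LE than in EE, with log2 changes of 3.86 and 1.94. In EE, transfrag19247 had 1 read in 1 library and none in the other.

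The largest falls started from EE levels between 20.18 and 151.57. transfrag31382 (contig 119, bases 208182 to 208591, + strand) went from 25.92 to 5.79 and 1.18, where the last value corresponds to 4 reads in 1 library and none in the other, and was at least 21.8-fold lower in LE. transfrag20806 (contig 111, bases 216297 to 216940, − strand) went from 151.57 to 19.69 and 12.75, a log2 change of −3.47 (SE 0.33), and its mRNA from 37.92 to 16.53 and 23.75. transfrag11556 (contig 105, bases 332570 to 333112, − strand) went from 83.61 to 16.23 and 17.78, a log2 change of −2.17 (SE 0.34). It lay opposite a gene closest to DAL5, the allantoate permease of *S. cerevisiae*, whose mRNA was listed at 0.71, 12.79 and 12.13 and began 641 bp inside the gene. DAL5 was the closest homolog of 3 gene models, so the division of reads is uncertain here too. transfrag17144 (20.18, 6.44 and 3.66) and transfrag01050 (35.00, 11.25 and 6.98) had log2 changes of −2.18 (SE 0.65) and −2.17 (SE 0.52). The mRNA level of transfrag17144 was nearly level at 25.13, 25.56 and 24.72.

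A few 5′-end lancRNAs carried most of the signal. transfrag15552, transfrag17060 and transfrag29061 held 64.1% (EE), 75.4% (ME) and 64.1% (LE) of the summed level of the 510. transfrag15552 (contig 106, bases 671118 to 673175, − strand) had levels of 13875, 19606 and 29942 and faced an mRNA of 722, 1310 and 2066, so the transcript named antisense was 15.1 times as high per kb as the one named sense. It covered 91.2% of that mRNA. transfrag17060 (contig 110, bases 508712 to 509757, + strand) peaked in ME with 6127, 30055 and 4202 and reached only 2 bp past an mRNA of 100.68, 783.72 and 1002.99. Its level per kb was 23.1 times that of the mRNA. transfrag31333 (contig 119, bases 176877 to 178115, + strand) was also above its mRNA, with 213.73, 581.57 and 817.79 against 9.58, 37.20 and 68.80. None of the gene models used here matched the mRNAs of these 3 pairs, so which strand holds the gene was not checked.

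Of the 21 lancRNAs above their mRNA in every growth phase, 19 had a mean level of at least 10. transfrag12581 (contig 105, bases 1019935 to 1020932, − strand) covered the start of a gene closest to JEN1, the lactate and pyruvate transporter of *S. cerevisiae*. Its levels were 544.60, 175.57 and 313.78 and those of the mRNA 33.36, 97.00 and 146.96. As a percent of the mRNA level the lancRNA stood at 1632% (EE), 181% (ME) and 214% (LE). Between EE and ME the lancRNA fell while the mRNA rose, and between ME and LE both rose. transfrag20879 (119.23, 142.45 and 175.64) reached 1869 bp past an mRNA transfrag listed at 4.00, 0 and 0.69. transfrag06824 (17.03, 91.12 and 64.10) lay opposite a gene closest to STE3, a mating pheromone receptor. The mRNA transfrag it crossed began 894 bp inside that gene, with 1 other mRNA transfrag of the gene upstream. transfrag25378 rose from 4.16 to 91.98 and 123.04 beside an mRNA that stayed at 8.79, 8.94 and 8.31. transfrag25378 was below its mRNA in EE, with 4 reads in 1 library and 1 in the other. In 47 pairs the lancRNA was above the mRNA in EE and below it in LE, and in 27 pairs it was the reverse.

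At the other extreme stood lancRNAs opposite the most abundant mRNAs. transfrag01628 (contig 91, bases 44286 to 45894, − strand) covered 92.9% of the mRNA of a gene closest to EF1A, translation elongation factor 1-alpha, and rose from 58.3 to 234 and 397 while the mRNA stood at 69681, 74485 and 112409. The log2 change in LE was 2.75 (SE 0.30). transfrag04218 (contig 103, bases 669052 to 670950, + strand) faced the mRNA of a gene closest to carboxypeptidase Y, a protease of the vacuole, with 30.7, 737 and 569 against 16754, 30105 and 51587. transfrag27488 (23.5, 39.8 and 75.5) faced an mRNA of 25914, 21717 and 21453. transfrag14358 (contig 106, bases 1017304 to 1019281, + strand) went from 44.45 to 926.31 and 804.11 opposite an mRNA that went from 54538 to 17653 and 31608. Reads put on the wrong strand by the library protocol would appear opposite such mRNAs. Among the 100 pairs with the highest mRNA levels, the 5th percentile of the lancRNA level, as a percent of the mRNA signal in the overlap, was 0.0667% (EE), 0.242% (ME) and 0.164% (LE), and was taken as the wrong-strand share. This share comes to 43.2, 167 and 172 of the levels of transfrag01628, and to 13.4, 40.8 and 27.4 of those of transfrag27488. The ME level of the latter was no higher than the share. Set at the 5th percentile of these same 100 pairs, the share leaves some of them at or under it by construction. The pair of transfrag27488 is among the 100. It comes to 24.8 of the EE level of transfrag14358 and 9.84 of that of transfrag04218. With the share subtracted, the log2 change in LE was 3.82 for transfrag01628, 2.15 for transfrag27488, 5.22 for transfrag14358 and 4.50 for transfrag04218. No SE was computed for these changes. With these amounts subtracted from all 510, the counts of rises and falls were 194 and 122 (ME against EE), 206 and 129 (LE against EE) and 40 and 51 (LE against ME).

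The longest lancRNA was also the one that reached farthest. transfrag29061 (contig 114, bases 522508 to 525816, − strand) was 3309 bp long, covered 90.01% of its mRNA, transfrag26945, and went on for 2138 bp beyond the 5′ end. Its levels were 228, 5564 and 6876 and those of the mRNA 119908, 30929 and 47265, so both moved in opposite directions. It ended 63 bp before an mRNA transfrag of its own strand with levels of 19203, 13292 and 16338. The next longest stretches past the 5′ end belonged to transfrag20879 with 1869 bp, transfrag04719 with 1194 bp, transfrag32064 (21.05, 89.52 and 113.22) with 874 bp and transfrag08444 with 848 bp. transfrag08444 (18.04, 72.41 and 101.05) lay opposite an mRNA transfrag listed at 2.04, 1.99 and 0, which began 1441 bp inside a gene closest to UGA4, a permease for gamma-aminobutyrate, of which 3 gene models were used, so its reads are uncertain as well. The longest overlaps were those of transfrag16627 with 2274 bp (33.7, 125 and 134), transfrag05180 with 2232 bp (182.12, 231.46 and 146.89), transfrag06782 with 1969 bp, transfrag14358 with 1955 bp and transfrag17059 with 1881 bp (64.39, 153.17 and 97.59). transfrag05180 faced a gene closest to FLO5, a cell wall protein of flocculation, which was the closest homolog of 6 gene models, so its reads are also uncertain.

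Grouped by the function of the gene that their mRNA matched, 203 of the 1998 gene models (10.2%) carried a 5′-end lancRNA. The gene table is held in part, so these are shares of the models used here. Central carbon metabolism had the highest share of the lists, with 11 of 62 genes (17.7%), and ribosome biogenesis the lowest, with 3 of 77 (3.896%). No test of these shares was made. The counts of rises and falls in LE against EE below stand beside 27.0% higher and 42.7% lower over all transfrags, and 40.8% and 24.3% over all 5′-end lancRNAs. With so few lancRNAs in a list, none of these counts is read as particular to it.

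Of the 11 lancRNAs whose mRNA matched a gene of central carbon metabolism, 6 were at least 2-fold higher and 2 lower in LE against EE. transfrag07749, opposite the xylulokinase gene (closest to XKS1), rose from 36.89 to 95.47 and 132.79, a log2 change of 1.82 (SE 0.38), and its mRNA went from 3475 to 831 and 1217. transfrag10564, opposite mitochondrial malate dehydrogenase (MDHM), went from 21.28 to 80.61 and 70.13. transfrag06034, opposite L-lactate dehydrogenase (CYB2), went from 8.16 to 20.80 and 20.49 as the mRNA went from 182 to 564 and 998. The 2 that were lower were transfrag04719, at the mRNA transfrag of glycogenin (GLG2), with 168.45, 37.37 and 45.33, and transfrag07502, opposite an aconitase (ACON2), with 47.12, 10.24 and 16.01. Both overlapped the mRNA by little, 2 and 14 bp, and lay almost wholly upstream of it. transfrag04719 lay from −1714 to −519 bp relative to the GLG2 gene start and did not overlap the gene model itself.

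Membrane transport genes had 9 lancRNAs on 90 genes, of which 6 were at least 2-fold higher and 1 lower in LE against EE. All 9 had a mean level of at least 10, where 62.2% of the 5′-end lancRNAs were higher. transfrag06782 (contig 103, bases 926800 to 929295, − strand) faced the gene closest to GAP1, the general amino acid permease. It went from 171.35 to 479.54 and 908.84 and its mRNA from 104.66 to 494.29 and 709.09, with log2 changes of 2.40 (SE 0.18) and 2.75. Both strands of this gene thus gained signal to similar degrees. In the HGT1-like genes above, the lancRNA gained and the mRNA stayed within 2-fold.

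Of 10 lancRNAs opposite genes of transcription factors, 4 were at least 2-fold higher and 1 lower in LE against EE, near the share over all 5′-end lancRNAs. transfrag02451, opposite WHI5, a repressor of the entry into the cell cycle, went from 11.78 to 36.70 and 63.86, a log2 change of 2.34 (SE 0.63), and its mRNA from 2421 to 520 and 836. transfrag07879, opposite CRZ1, a factor activated by calcineurin, had 59.97, 54.28 and 101.49 and did not reach 2-fold. transfrag10125, opposite RGT1, the repressor of hexose transporter genes, had 46.02, 24.90 and 47.81, and its mRNA 2496, 679 and 977. This mRNA transfrag began 2258 bp inside the gene, with 1 other mRNA transfrag of the gene upstream, and the gene start was not covered. transfrag02367, opposite the gene of a sterol regulatory factor (SREBP), had 20.89, 40.76 and 38.44, and transfrag01286, opposite DOT6, a repressor of ribosome biogenesis genes, 41.52, 21.01 and 33.97.

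The remaining lists were small. Of 10 lancRNAs opposite cell cycle and signalling genes (9 genes), 4 were at least 2-fold higher and 1 lower in LE against EE, again near that share. transfrag04704 covered the start of the gene of the protein kinase YAK1 and went from 7.70 to 61.24 and 73.78, a log2 change of 3.10 (SE 0.74), while the mRNA went from 2839 to 696 and 1146. Its EE level came from 9 reads in 1 library and 1 in the other. transfrag09536, opposite CDC48, an ATPase that extracts proteins from complexes, had 16.73, 40.10 and 38.52, and transfrag06789, opposite the kinase HAL5, had 19.78, 13.76 and 25.13 while its mRNA went from 1.33 to 45.88 and 89.16.

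Mitochondrial respiration had 5 lancRNAs, of which 2 were higher and 3 lower in LE against EE. transfrag09705 (contig 105, bases 271326 to 271559, + strand) covered the start of the gene of the ATP synthase beta subunit (ATPB) and had 9.50, 39.83 and 4.04, a peak in ME, while the mRNA went from 1655 to 12476 and 22793. The EE level came from 4 and 5 reads and the LE level from 7 and 5 reads in both libraries, and the wrong-strand share comes to 2.84 of the LE level of transfrag09705. transfrag12304, opposite CYT2, which attaches heme to cytochrome c1, had 68.68, 19.23 and 31.51. transfrag03422, opposite another ATP synthase subunit (ATPF), had 3.45, 13.33 and 19.02, beside an mRNA of 91.3, 2055 and 1502.

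Amino acid and nucleotide synthesis had 4 lancRNAs, none at least 2-fold higher and 1 lower. transfrag12564, opposite phosphoserine phosphatase (SERB), had 95.20, 116.42 and 142.79 as the mRNA went from 1545 to 401 and 750. transfrag05257, opposite a phosphoribosyl pyrophosphate synthetase (KPR5), had 17.27, 7.27 and 9.79. Ribosome biogenesis had 3, of which 1, transfrag04135 opposite the exosome nuclease RRP44 (4.95, 11.00 and 18.76), was higher in LE. Its mRNA transfrag (8.24, 3.54 and 2.28) began 2455 bp inside the gene, with 2 other mRNA transfrags of the gene upstream. transfrag05177, opposite fibrillarin (FBRL), an rRNA methyltransferase, had 75.04, 61.17 and 122.43 and its mRNA 2371, 398 and 740. Both ribosomal protein genes with a 5′-end lancRNA, closest to RL8B and RL13B, faced lancRNAs with a mean level under 10 that stayed within 2-fold in LE against EE.

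Changes of the lancRNA and of its mRNA went together only weakly. In LE against EE both members of a pair changed at least 2-fold in 232 of 510 pairs. Both were higher in 112, both lower in 39, the lancRNA higher and the mRNA lower in 30, and the lancRNA lower and the mRNA higher in 51. Of the 208 lancRNAs that were higher, 53.8% had an mRNA that was higher too, against 52.0% of all 510 mRNAs. Of the 124 that were lower, 31.5% had an mRNA that was lower, against 18.6% of all. The Pearson coefficient of both log2 changes across the 510 pairs was 0.15 and Spearman's 0.14, and across the 259 pairs with a mean lancRNA level of at least 10 it was 0.00 and 0.01. Each pair shares its libraries and scaling, so these are descriptions.

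In ME against EE the counts were 105 with both higher, 28 with both lower, 36 with the lancRNA higher and the mRNA lower and 47 with the reverse. The Pearson coefficient was 0.10. Of the 197 lancRNAs that were higher, 53.3% had an mRNA that was higher, against 49.6% of all 510. In LE against ME only 15 pairs changed at least 2-fold on both strands, 6 in the same direction and 9 in opposite directions.

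**Figure D5:**
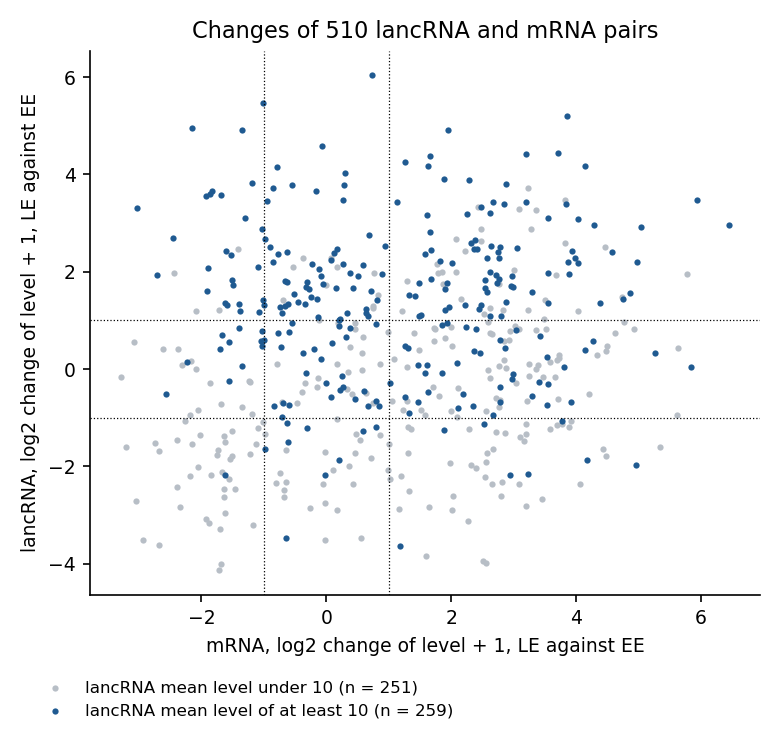
Log2 change of level + 1 in LE against EE of the mRNA (horizontal) and of the 5′-end lancRNA (vertical), 1 point per pair, in blue for the 259 lancRNAs with a mean level of at least 10. Dotted lines mark 2-fold, and the points fill all 4 corners, with 112 pairs higher on both strands, 39 lower on both, 30 with the lancRNA higher and the mRNA lower, and 51 the reverse.

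Further pairs with opposite courses, besides transfrag29061, transfrag19276 and transfrag14358 above, had levels of both strands over the limit of 3 reads in every growth phase. transfrag06423 (30.08, 175.53 and 369.99), opposite a gene closest to YM8V, faced an mRNA of 13261, 2447 and 4122 on contig 103. transfrag20412 (31.50, 192.43 and 391.16) faced one of 17621, 5320 and 4863 on contig 111. The lancRNA was at least 2-fold lower in LE in transfrag06061 (655.14, 145.99 and 288.18), opposite a gene closest to PRY2, a secreted sterol-binding protein, whose mRNA had 279, 355 and 487, under 2-fold. These 3 pairs were chosen after their values were seen.

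Past the mRNA 5′ end, a 5′-end lancRNA runs in the direction of the next transfrag of its own strand. That neighbour was an mRNA in 122 of 510 (23.9%), a lancRNA in 133, a lincRNA in 119, a sancRNA in 77 and a sincRNA in 56, where lincRNAs and sincRNAs are the long and short intergenic and sancRNAs the short antisense noncoding RNAs. Among lancRNAs over the 3′ end only, it was an mRNA in 31 of 246 (12.6%), and among those inside the mRNA in 172 of 1262 (13.6%). The gap to it had a median of 577 bp. No mRNA followed within 40 bp, the distance below which the authors merged neighbours, 3 did within 100 bp and 36 (7.06%) within 500 bp. Of the lancRNAs over the 3′ end only, 2 of 246 (0.813%) were followed by an mRNA within 500 bp, and of those inside the mRNA 25 of 1262 (1.98%). The rule itself sets which side of the mRNA a lancRNA points to, so these shares are descriptions.

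Close neighbours did not share a single course. transfrag02688 (4.08, 20.24 and 23.72) ended 73 bp before an mRNA of a gene closest to MET16, an enzyme of sulfate assimilation, with levels of 39.34, 163.18 and 285.57, and crossed the 5′ end of the Mediator subunit gene MED10. Here lancRNA and following mRNA rose together. transfrag13795 (24.18, 47.83 and 55.60) ended 73 bp before an mRNA that went from 1269 to 226 and 422. transfrag07502, opposite the aconitase gene, ended 194 bp before the mRNA of the phosphate transporter PHO87 (3610, 1392 and 2301), and both were lower in ME and LE than in EE. transfrag04704, opposite YAK1, ended 373 bp before the mRNA of RPB4, a subunit of RNA polymerase II (62.25, 222.06 and 284.83), and both were higher. transfrag01130 (8.95, 2.26 and 0.98) crossed the 5′ end of the biotin synthesis gene BIOD and ended 283 bp before the mRNA of BIOA, of the same pathway (2.12, 2.00 and 1.28), and its reads in both libraries were 7 and 3 (EE), 7 and 1 (ME) and 2 and 1 (LE). These neighbours were chosen for their short gaps and known names after their values were seen.

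Over the 36 lancRNAs followed by an mRNA within 500 bp, 17 were higher and 8 lower in LE against EE, close to the 40.8% and 24.3% of all 510, with a median log2 change of 0.67, against 0.29 for the following and 0.23 for the overlapped mRNAs. The lancRNA and the following mRNA were both higher in 6, both lower in 3 and opposite in 9. The lancRNA and the overlapped mRNA were both higher in 7, both lower in 1 and opposite in 11.

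In 3 places, 5′-end lancRNAs came as a pair from divergent genes, each crossing the 5′ end of its own host and pointing toward the mRNA of the other. On contig 105, transfrag10791 (0, 9.71 and 5.34) crossed the 5′ end of the mRNA of a gene closest to YD266 (214.28, 580.51 and 903.84). transfrag12536 (12.95, 17.67 and 34.49) crossed that of GEP4, a mitochondrial lipid phosphatase (605.19, 101.81 and 195.20). These 5′ ends were 273 bp apart, and the lancRNAs did not overlap and ended 233 and 266 bp before the other mRNA. On contig 106, transfrag13795 and transfrag15525 (20.65, 47.85 and 52.92) overlapped each other by 250 bp within an interval of 774 bp, and both were at least 2-fold higher in LE while both mRNAs were at least 2-fold lower. On contig 103, transfrag03828 (11.15, 12.06 and 8.90) and transfrag06001 (8, 0 and 0) crossed the mRNA 5′ ends of genes closest to DPH2 and PYRC, 979 bp apart. They ended 876 and 814 bp before the other mRNA. The PYRC mRNA was listed at 2.67, 2.19 and 0, under the limit of 3 reads in EE and LE.

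Within the host gene, 190 of 510 (37.3%) mRNAs carried at least 1 further antisense transfrag, against 111 of 246 (45.1%) for lancRNAs over the 3′ end only and 847 of 1262 (67.1%) for those inside the mRNA. The transfrag just upstream of a 5′-end lancRNA on its own strand was a lancRNA or sancRNA in 337 (66.1%). The number of antisense transfrags a gene can hold grows with its length, and the median mRNA length was 1262.5 bp for the 190 and 612 bp for the other 320.

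The direction of change differed in size between positions along the mRNA. In LE against EE, 40.8% of the 5′-end lancRNAs were higher and 24.3% lower. For the 246 over the 3′ end only, 24.4% were higher and 41.9% lower, with a median log2 change of −0.64, and for the 1262 inside the mRNA, 38.3% and 27.2%, with a median of 0.29. With a mean level of at least 10, the shares were 62.2% and 6.95% over the 5′ end, 39.8% and 25.2% over the 3′ end and 62.9% and 11.7% inside. Lengths, levels and mRNA levels differ among these classes as well, and the 3 classes share all libraries, so this is a description and no test was made.

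Predicted tRNA genes lay within 2 of the 510, transfrag15854 (10.83, 8.13 and 7.50) and transfrag23901 (68.53, 17.33 and 18.05), in both cases on the other strand from the lancRNA and over the full 72 bp of the tRNA gene. Of the 207 lancRNAs with a gene model, the 107 that covered the gene start had a median level of 9.03, 16.3 and 19.0 with 44 higher and 18 lower in LE against EE. The 100 that did not cover it had 7.03, 10.4 and 10.2 with 44 higher and 29 lower. In percent, 41.1% of the 107 were higher and 16.8% lower, and 44% and 29% of the 100. Over all 510 the shares were 40.8% and 24.3%, and over all transfrags 27.0% and 42.7%. The shares of rises were thus near that of all 510.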

How the data were processed

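Total RNA depleted of rRNA was sequenced in 6 strand-specific libraries (dUTP method), 2 per growth phase. The authors trimmed the reads, mapped them with CLC genomics workbench to the contigs of the genome assembly, placed reads with several matches at random, and joined reads of all growth phases into transfrags. The submitters' processing notes name CASAVA 1.4 and DESeq. The deposited values are a normalized signal of 1 mean per transfrag and growth phase, given to 2 decimals, for transfrags with a mean of at least 1.34. Start, end, strand and class were read from the deposited annotation, whose positions are in bp. Gene models, closest homologs and the mapped reads per library, used in 1 scaling alternative, come from the study's supplementary tables, held in part for the gene models. Sequences were not used here.

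Members and gene lists were chosen with earlier results of these data known. Levels were compared as log2(level + 1), a call was a change of at least 2-fold, and no test was possible with 1 mean per growth phase. The steps that 1 read adds to a level were searched in the low levels, with a tolerance of 0.0051. SEs are counting errors widened by the spread between both libraries at low levels. Levels at or under 3 reads in 1 library gave folds as lower bounds. Limits cover counting error only, and intervals cover counting error and this spread. Named lancRNAs are the 5 largest rises and falls in LE (mean level of at least 10, same direction in ME), the 5 highest levels, mRNA levels and ratios per kb, the 5 longest overlaps and stretches past the 5′ end, and up to 5 per gene list with a mean level of at least 10. Others are named as chosen after seeing values. The step search, the position classes and the calls were tested on simulated data. Alternatives were other pseudocounts, fold limits, scalings, overlaps and gaps, a minimum mean level, levels per kb, leaving out tRNA genes or uncovered gene starts (the last chosen after seeing the data) and subtracting wrong-strand reads. Python 3.11.15, NumPy 2.4.6, pandas 2.3.3, SciPy 1.17.1 and Matplotlib 3.10.9 were used.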

Additional observations from a re-analysis of the deposited data

How the results depend on the processing

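Each growth phase has 1 authors' mean of both libraries. No paired analysis was possible because no value per library was held, and leaving out each replicate and the replicate block were not run. Of 151 alternative values, 99 stayed within 1.5 times of a count or within the order-statistic interval of a median, and 52 moved. Each count was judged alone, so the 99 do not show that the balance of rises and falls held. Scaled by the summed level without the 100 highest transfrags, 208 higher and 124 lower in LE against EE became 148 and 171. Both passed as unmoved, and 20.4% and 51.6% of all transfrags were so called. With a pseudocount of 5, 65 lancRNAs were lower in ME against EE, 74 in LE against EE and 13 in LE against ME, and 10 were higher in LE against ME. Pairs changed in the same direction numbered 82 (ME against EE) and 2 (LE against ME), and in opposite directions 55, 46 (LE against EE) and 3. Where the mean level was 10 or more, 23, 18 and 11 were lower and 10 were higher in LE against ME, the medians were 1.19, 1.41 and 0.30, pairs numbered 74, 81 and 1 in the same and 43, 34 and 1 in opposite directions, and the median percent of the mRNA level was 11.5 in ME and 11.2 in LE. This setting leaves 259 lancRNAs. Scaled by mapped reads, 324 were higher and 51 lower in ME against EE, 18 and 114 in LE against ME, the medians were 1.61, 1.24 and −0.31, pairs in the same direction numbered 227 (ME against EE) and 17 (LE against ME), and 41 were opposite in ME against EE. Scaled by the summed level without the 100 highest transfrags, the medians were 0.22, −0.032 and −0.19. With this scaling 12 were higher and 76 lower in LE against ME, where 1.46% and 20.6% of all transfrags were so called. The 4-fold limit gave 88 higher and 53 lower (ME against EE), 107 and 60 (LE against EE) and 5 and 8 (LE against ME), and the 1.5-fold limit 118 and 95 in LE against ME. For these limits and the pseudocount of 5, the shares over all transfrags were not computed. Those counts are therefore not read as particular to the 5′-end lancRNAs. Per kb, the percent of the mRNA level was 19.7, 11.4 and 10.9, and 10 pairs changed in the same direction in LE against ME. An mRNA followed within 100 bp in 3. Scaling and pseudocount do not enter the percent of the mRNA level and were not run for it. The cause of the differences between scalings was not tested. Leaving out lancRNAs off the gene start, an alternative added after seeing the data, moved no count by over 1.5 times. Only 207 of the 510 had a gene model, and this setting dropped 100 of them and kept all lancRNAs without one. It therefore does not show what holds for lancRNAs over gene starts only. Levels at or under 3 reads, most frequent in EE, limit what low lancRNAs can show.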
